A study of Macaca mulatta and Mus musculus with 5 samples.

Results

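In the mouse meninges, 86 of 13933 barcodes met the criteria for Mpo-high myeloid progenitors. Next to Mpo, Prtn3 had UMIs in 83 of these cells, Cd34 in 82 and Ctsg in 63. Granule genes of later neutrophils were mixed, with no UMI of Camp or Ly6g in any of the 86 cells and UMIs of Hp in 27. The cells were chosen by their raw counts of unique molecular identifiers (UMIs, the molecules counted in a cell). A member had at least 300 detected genes, at least 5 Mpo UMIs, fewer than 5 Mcpt8 UMIs, no Cd3e UMI and at most 2 Cd79a UMIs. The library was made from pooled, flow-sorted meningeal cells of male C57BL/6 mice aged 2, 21 and 48 days, with 10x 3'-end chemistry and 30000 cells loaded per channel. The cells had been tagged with hashtag antibodies, but the table used here holds no hashtag counts, so the ages were not separated. The labels write the sort as CD45–CD11b–, where the dashes can be read as minus signs or as separators. Ptprc, which encodes CD45, had UMIs in 80 of the 86 members, and Itgam, which encodes CD11b, in 31, with at most 3 Itgam UMIs in a cell. Xist was at 0 in every member and the Y-linked gene Ddx3y had UMIs in 74, as the label male would give.

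Myeloid progenitors are the bone marrow and fetal liver cells from which neutrophils, monocytes and basophils arise. At this stage they fill their first (primary) granules with myeloperoxidase, the product of Mpo, and with the serine proteases neutrophil elastase (Elane), proteinase 3 (Prtn3) and cathepsin G (Ctsg). CD34 is a surface protein of stem and progenitor cells, and KIT, the receptor of stem cell factor, marks early progenitors and mast cells. The meninges are supplied with immune cells from marrow in the adjacent skull, and early B cells are known to develop there.

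The comparisons below set the members against 13847 other barcodes of the same library, against 36 barcodes with high Mcpt8 (at least 5 UMIs of this basophil protease, no Cd3e and at most 2 Cd79a UMIs) and against 1163 Dntt-positive B-lineage barcodes (at least 1 Dntt and 3 Cd79a UMIs, no Cd3e and fewer than 5 Mpo UMIs). All come from 1 pooled library, so there is no replicate and no test: UMIs were summed over each set of cells and scaled to CPM, the gene's UMIs per 1000000 UMIs of the set. Exact Poisson intervals on CPM and exact binomial intervals on shares, both at 95%, cover counting error only. For a count of 0 the limit given is instead that of 3 counts. A gene was called higher or lower when the ratio of the CPM values, each plus 1, reached 4-fold, among genes with at least 20 CPM on either side. A gene under 20 CPM on 1 side entered through the other side, which fixed its direction.

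The members were deep cells. They held 15847 to 67262 UMIs (median 38416) and a median of 5671 genes, whereas the other barcodes had a median of 6291 UMIs and 2191 genes. A threshold in raw UMIs favours deep cells. With Mpo at 50 CPM or more in place of 5 UMIs, an alternative chosen after seeing the data, 145 barcodes qualified. Mitochondrial UMIs were 2.10 to 7.03% in members. Scrublet, a doublet caller, marked 175 barcodes of the library (1.26%) and no member. The members made up 0.617% of the barcodes (0.494 to 0.762%) and held 63.8% of all Mpo UMIs. A further 27 barcodes had at least 5 Mpo UMIs and were left out, 10 by Mcpt8 alone, 6 by Cd3e alone, 6 by Cd79a alone and 5 by more than 1 of these genes. The members shared no barcode with the 4 macaque channels of the series, which shared 16 to 28 barcodes each with the mouse library.

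Mpo, the gene that chose the cells, lies on mouse chromosome 11 at positions 87793581 to 87804413 of GRCm38 and is given as a description. It had 5 UMIs in the lowest member, a median of 35.5 and 488 in the highest, and 2063 CPM over all members against 31.5 CPM in the other barcodes. The 3 barcodes just inside the threshold, at 5 Mpo UMIs, held 2, 10 and 96 Prtn3 UMIs and 0, 3 and 11 Cd34 UMIs. The 4 barcodes just outside it, at 4 Mpo UMIs, held 0, 2, 6 and 44 Prtn3 UMIs and 1, 5, 7 and 10 Cd34 UMIs. Prtn3 and Cd34 UMIs were thus found on both sides of the threshold. Among the 63 barcodes with 1 Mpo UMI that met the other criteria, 51 had no Prtn3 UMI. Of the 9 such barcodes with 2 Mpo UMIs, 8 had 5 or more Prtn3 UMIs and 8 had a Cd34 UMI.

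The primary granule proteases were high in the members but unevenly spread. Prtn3 lies on mouse chromosome 10 at positions 79874476 to 79883174 of GRCm38, with Elane 3073 bases beyond its end on the same strand (79886247 to 79888215), and both genes encode neutrophil serine proteases. Prtn3 had 0 UMIs in the lowest member, a median of 26 and 516 in the highest. It reached 1779 CPM (1735 to 1825) in members and 24.3 CPM (23.5 to 25.2) in the other barcodes, a 70.3-fold ratio. Elane had UMIs in 37 of 86 members, with a median of 0 and 419 in the highest member, which alone held 17.8% of its UMIs. Over all members Elane stood at 701 CPM (673 to 730), against 6.74 CPM (6.30 to 7.22) in the other barcodes, a 90.7-fold ratio. Ctsg, on chromosome 14 from 56099881 to 56102574, had UMIs in 63 members, a median of 19 and a highest value of 324. Its level was 1019.9 CPM (986 to 1055) in members and 23.2 CPM (22.4 to 24.1) in the other barcodes.

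Elane thus marked a part of the members, while Prtn3 had UMIs in 83 of them. With every member thinned to 15000 UMIs, so that depth was equal, all 32 members with an Elane UMI also had a Prtn3 UMI and a Ctsg UMI. Another 50 had Prtn3 without Elane, and 31 had Ctsg without Elane. Of the 3 proteases, 32 members had all, 30 had a pair, 21 had 1 and 3 had none. Across the 86 cells at this depth, Spearman's rho was 0.82 between Elane and Prtn3 and 0.79 between Prtn3 and Ctsg. It was -0.49 between Elane and Cd34 and -0.61 between Elane and Flt3, a cytokine receptor of early progenitors. These cells share 1 library, and the correlations are descriptions.

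Cd34 and Kit were both above the rest of the library, Cd34 by far more. Cd34, on chromosome 1 from 194938819 to 194961279, had UMIs in 82 members, with a median of 11 and a highest value of 41. It stood at 303 CPM (285 to 322) in members and 6.11 CPM (5.68 to 6.56) in the other barcodes, a 42.8-fold ratio. Kit, on chromosome 5 from 75574916 to 75656722, had UMIs in 69 members, a median of 3 and a highest value of 13. Its level was 95.6 CPM (85.4 to 107) in members and 21.2 CPM (20.4 to 22.0) in the other barcodes, a 4.35-fold ratio. Outside the members, Kit had 197 CPM in the Mcpt8-high barcodes and 22.8 CPM in the Dntt-positive B-lineage barcodes, and Cd34 111 and 0.544 CPM in those sets.

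Every barcode was thinned to 2000 UMIs to compare shares of cells at 1 depth. Cd34 had a UMI in 44.2% of members (33.5 to 55.3%), in 16.7% of Mcpt8-high barcodes (6.37 to 32.8%) and in 0 of 1160 Dntt-positive B-lineage barcodes, where 3 counts would be 0.259%. The share was 0.461% in the other barcodes. Prtn3 had a UMI in 73.3% of members (62.6 to 82.2%), 11.1% of Mcpt8-high barcodes (3.11 to 26.1%) and 0.966% of the other barcodes. Elane had one in 24.4% of members (15.8 to 34.9%) and 0.178% of the other barcodes. In B-lineage barcodes without Mpo, which should lack these genes, the shares were 0.102% for Cd34, 0.722% for Prtn3 and 0.132% for Elane. Those barcodes had a median of 5800 UMIs before thinning, against 38416 in members. Kit stood at 19.8% in members (11.96 to 29.8%) and 13.9% in Mcpt8-high barcodes (4.67 to 29.5%), with overlapping intervals. That order is opposite to the one by CPM, where Kit was lower in members, so none is read from it. Before thinning the shares were 95.3% in members and 1.28% in the other barcodes for Cd34, 96.5 and 2.85% for Prtn3, 43.0 and 0.636% for Elane, and 80.2 and 5.84% for Kit. A share at 2000 UMIs also moved with the random draw: averaged over all draws, Cd34 stood at 43.0% in members and 12.1% in Mcpt8-high barcodes, and a second draw gave 32.6% in members.

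**Figure D1:**
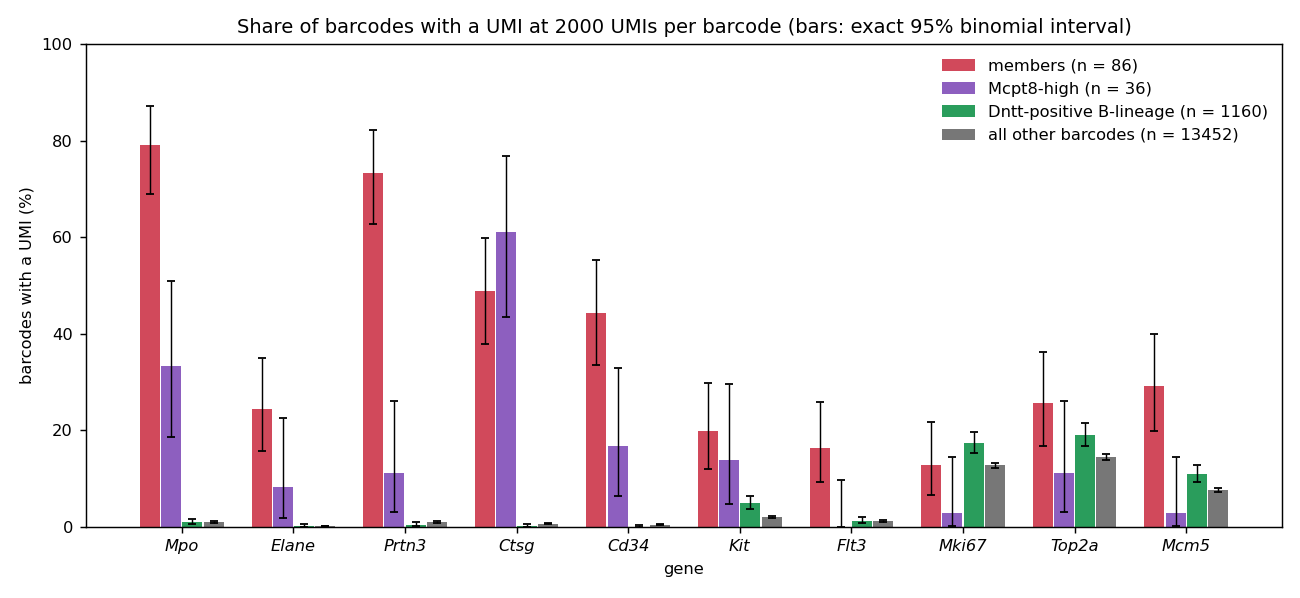
Share of barcodes (%) with at least 1 UMI of each gene after thinning to 2000 UMIs, in members, Mcpt8-high, Dntt-positive B-lineage and all other barcodes; bars are exact 95% binomial intervals. Prtn3 and Cd34 stand at 73.3 and 44.2% in members, and for Ctsg the members (48.8%) and the Mcpt8-high barcodes (61.1%) overlap.

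Over the whole table, 161 of 6631 genes (2.43%) were 4-fold or more higher in members than in the other barcodes and 351 (5.29%) were 4-fold or more lower, with a median log2 ratio of -0.06. Of 20 primary granule genes, 18 passed the level filter, 10 of these were 4-fold higher, Mpo among them by the rule, and none was lower. The median log2 ratio of the 18 was 2.19. Beside Elane, Prtn3 and Ctsg, the higher ones included Prss57, a further serine protease of neutrophil granules, at 38.1 CPM in members and 1.97 CPM in the other barcodes. The remaining ones were Ms4a3, a gene of granulocyte-monocyte progenitors, Lyz2 (lysozyme), Cst7, Cd63 and Gstm1. Elane, Prss57 and Ms4a3 were under 20 CPM in the other barcodes and passed the filter only through the members. They could only be higher, so their direction is not a result. Granule genes shared with other immune cells were closer to the rest. Nkg7 had 171 CPM in members and 212 CPM in the other barcodes, and Srgn, the proteoglycan core that holds granule contents, 1213 and 896 CPM in the same order.

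Genes of the later, specific and tertiary granules were mixed. Of 20 such genes 5 passed the filter, with 1 past 4-fold upward, 1 downward and a median log2 ratio of 0.70. Summed, the 20 stood at 351 CPM in members and 138 CPM in the other barcodes, and 11 of them had a log2 ratio above 0. Anxa1, annexin A1, and Hp, haptoglobin, gave most of the sum, with 139 and 106 CPM in members. In contrast, 5 of the 20 had no UMI in any member. They were Camp (cathelicidin), Ly6g, Mmp9 (a gelatinase), Retnlg and Lrg1, where 3 counts would be 0.893 CPM. Ltf (lactoferrin) and Ngp had 1 UMI each in members, and Chil3, a lectin-like protein of neutrophil precursors and macrophages, had UMIs in 2 members, 50 of its 52 UMIs in 1 of them. S100a9, a calprotectin subunit of mature neutrophils, had 2.38 CPM in members and 31.3 CPM in the other barcodes. The gene past 4-fold upward was Hp, with UMIs in 27 members and 106 CPM (94.98 to 117) over all members, against 2.10 CPM in the other barcodes. Hp passed the filter only through the members and S100a9 only through the other barcodes, so the direction of each was fixed.

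Of 28 stem and progenitor genes, 20 passed the filter, 10 were 4-fold higher and 1 lower, with a median log2 ratio of 1.97. Lmo2, a cofactor of stem cell transcription complexes, had UMIs in 84 members and stood at 315 CPM, against 46.9 CPM in the other barcodes. Angpt1, a ligand of the endothelial and stem cell receptor Tie2, had 95.3 and 8.23 CPM, and Hoxa9, a homeobox factor of progenitors, 33.3 and 2.20 CPM, in members and in the other barcodes. Ly6a, which encodes the stem cell antigen Sca-1, was the lower one, at 16.1 CPM in members and 93.3 CPM in the other barcodes. Cd34, Flt3, Angpt1 and Hoxa9 were under 20 CPM in the other barcodes and passed only through the members, so they could only be higher. Ly6a, under 20 CPM in members, could only be lower. Sox4 and Myb, which B-cell progenitors also use, were close to the rest of the library, with 444 CPM of Sox4 in members and 563 CPM in the other barcodes, and 280 and 322 CPM of Myb.

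Transcription factors of the myeloid branch were mixed. Of 20 such genes above the filter, 11 had a log2 ratio above 0, 5 were 4-fold higher (Cebpa, Cebpd, Cebpe, Nfe2 and Etv6) and 2 lower (Irf4 and Id2), with a median log2 ratio of 0.44. Cebpa, which commits cells to the granulocyte-monocyte lineage, had UMIs in 60 members and 65.8 CPM, against 4.54 CPM in the other barcodes. Spi1, which encodes PU.1, stood at 234 CPM in members and 81.1 CPM in the other barcodes. Irf8, a factor of monocytes and dendritic cells that B cells also use, had 412 CPM in members and 321 CPM in the other barcodes. Among 16 receptor genes above the filter, 5 were higher and 1 lower. Csf3r and Csf1r, the receptors of the neutrophil and macrophage growth factors, had 26.5 and 77.4 CPM in members and 0.930 and 6.69 CPM in the other barcodes. Il7r, the interleukin-7 receptor of lymphoid cells, was the lower one, at 15.5 CPM in members and 349 CPM in the other barcodes. Cebpa, Csf3r and Csf1r were under 20 CPM in the other barcodes and could only be higher. Il7r, under 20 CPM in members, could only be lower.

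Besides the genes described so far, the 25 largest ratios among genes of at least 100 CPM held monocyte and granulocyte genes, small membrane proteins and enzymes. F13a1, coagulation factor XIII A of monocytes, had 291 CPM in members and 8.77 CPM in the other barcodes. Lyz2 had 808 and 34.2 CPM in the same order, and 1 member held 19.5% of its UMIs. Ms4a3 had 126 CPM in members and 3.88 CPM in the other barcodes, with 23.6% of its UMIs in 1 member. The chemokine gene Ccl9 stood at 169 and 8.77 CPM, Ms4a6c at 339 and 22.2 CPM, and Igfbp4, an insulin-like growth factor binding protein, at 322 and 23.4 CPM, with UMIs in 85 members. The interferon-induced membrane genes Ifitm1, Ifitm2 and Ifitm3 were 7.91-fold, 8.62-fold and 10.2-fold higher in members. Other genes of the interferon list stayed low, with Ifit3 at 0 and Isg15 at 8.04 CPM in members and 11.5 CPM in the other barcodes. Adgrg3, Lst1, Slpi, Gsr, Clec12a, Glipr1, Egfl7 and Alox5ap, the last an activating protein of leukotriene synthesis, lay between 5.68-fold and 12.9-fold. The most abundant genes outside the ribosomal and mitochondrial ones were Eef1a1, Ptma, Malat1, Tpt1, Actb, Tmsb4x, Fau, Ppia, Hsp90ab1 and Plac8. Of these only Plac8, a small protein of myeloid and lymphoid cells, was past 4-fold, with 3174 CPM in members and 595 CPM in the other barcodes. The Mcpt8-high barcodes stood above the members for Ifitm1 (3049 CPM), Ifitm2 (1051 CPM), Ccl9 (846 CPM), Ms4a3 (410 CPM), Alox5ap (1220 CPM), Plac8 (4132 CPM) and Gsr (216 CPM). They stood below the members for F13a1 (10.9 CPM), Lyz2 (27.1 CPM), Ms4a6c (76.0 CPM), Igfbp4 (178 CPM), Ifitm3 (174 CPM) and Egfl7 (21.7 CPM). For Adgrg3, Lst1, Slpi, Glipr1 and Clec12a the intervals of both sets overlapped, so no order is read.

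**Figure D2:**
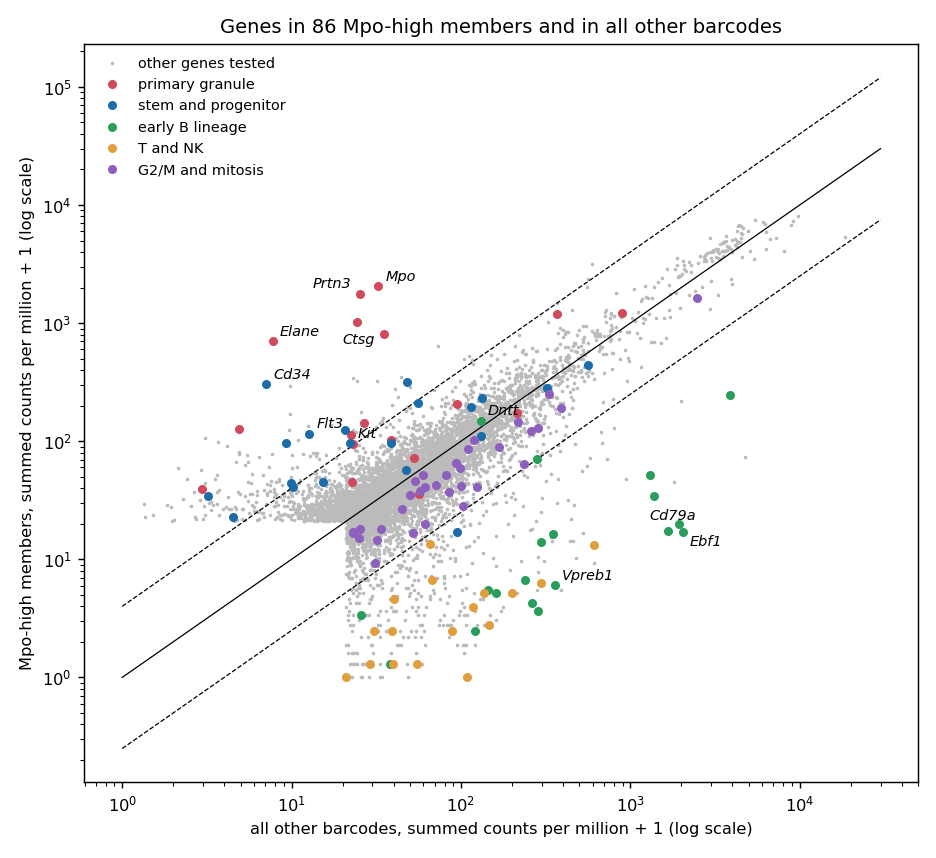
Each point is a gene; axes are summed CPM plus 1 on log scales in all other barcodes (x) and in the 86 members (y), with lines at equal level (solid) and 4-fold (dashed). Primary granule genes such as Prtn3 (1779 against 24.3 CPM) lie above the upper dashed line and B-lineage genes such as Ebf1 (16.1 against 2042 CPM) below the lower one.

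The smallest ratios belonged to lymphoid and basophil genes. Cd3e and Cd79a are among them by the rule that chose the cells. Ebf1, a transcription factor that commits cells to the B lineage, had 16.1 CPM (12.1 to 21.0) in members and 2042 CPM in the other barcodes. Vpreb3, Ms4a1, Fcrla, Pax5 and Vpreb1, all B-lineage genes, had 2.68 to 18.8 CPM in members and 261 to 1947 CPM in the other barcodes. Ikzf3, Slamf7, Gm30211 and the basophil protease gene Prss34 had at most 0.893 CPM in members and 102 to 120 CPM in the other barcodes. The Prss34 value turned on the rule: its log2 ratio was -5.77, but 4.14 when barcodes with 5 or more Mpo UMIs were admitted whatever their Mcpt8, Cd3e and Cd79a. Of 19 early B-lineage genes, 17 were 4-fold lower, Cd79a among them by the rule, and none was higher. Of 22 T and NK cell genes 17 passed the filter and all 17 were lower, Cd3e by the rule. The 22 genes summed to 59.2 CPM in members and 2134 CPM in the other barcodes. Most of these genes, and many of the B-lineage ones, passed the filter only through the other barcodes. They could only be lower, so their direction is not a result. The 16 macrophage genes summed to 352 CPM in members and 313 CPM in the other barcodes, with a median log2 ratio of 0.24 among the 4 above the filter. Most of that was Apoe, apolipoprotein E, at 249 CPM in members and 112 CPM in the other barcodes, while C1qa, C1qb and C1qc had 2 UMIs each in members. The fibroblast gene Col1a1 and the myelin gene Mog were at 0. Free RNA in droplets can give B-lineage counts to any cell of a library rich in B cells. The summed level of the 19 B-lineage genes ranged from 181 to 7933 CPM over members (median 456), 184 to 1104 CPM over Mcpt8-high barcodes (median 406) and 3296 to 56559 CPM over Dntt-positive B-lineage barcodes (median 29228). The part of free RNA in these levels was not tested, and that of doublets only through the Scrublet calls.

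Haemoglobin came from a single member. The 4 adult globin genes had 12754 UMIs in members, of which 12560 (98.5%) lay in 1 barcode, where they were 28.9% of its 43430 UMIs. The next highest member had 28, and the median was 1. Hbb-bs stood at 2019.9 CPM in members and 555 CPM in the other barcodes, with 99.1% of its member UMIs in that barcode. Without it, 159 genes were 4-fold higher and 351 lower, of which 158 and 346 were the same genes.

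The members set apart 4 sub-clusters when cell cycle, ribosomal, mitochondrial and histone genes were kept out of the clustering, of 33, 32, 13 and 8 cells. They are numbered by size and described by their leading genes, which the clustering used, so their values are descriptions with no test. Sub-cluster 1 (33 cells) was led by Gata2, a factor of stem cells and mast cell or basophil precursors, with 130 CPM against 3.91 CPM in the other members. Hlf, a transcription factor of stem cells, had 99.3 and 13.04 CPM in the same order. Kit was at 170 CPM here and Cd34 at 391 CPM, while Elane had UMIs in 8 of 33 cells with a highest value of 17. The barcode with the haemoglobin UMIs fell here. Cpa3, a mast cell and basophil protease, stood at 230 CPM, with a median of 1 UMI and 43 in the highest cell. The highest counts of Gata2 and Cpa3 lay in other cells than those of Hlf. The cell with 20 Gata2 UMIs had 42 Cpa3 UMIs and no Hlf or Cd34 UMI. The cell with 19 Hlf UMIs had 2 Gata2 UMIs, 20 Cd34 UMIs and no Cpa3 UMI. Apoe, also among the leading genes, had 662 CPM against 59.96 CPM in the other members, with up to 119 UMIs in a cell.

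Sub-cluster 2 (32 cells) was led by Dntt, the terminal transferase that adds bases at antigen receptor joints. Dntt had UMIs in 19 of its 32 cells, with a median of 3 and 135 in the highest, and 344 CPM against 19.7 CPM in the other members. Also higher when summed over the sub-cluster were Flt3 (223 and 44.7 CPM), the lymphoid-associated genes Notch1 (138 and 23.6 CPM) and Satb1 (210 and 50.6 CPM), and the survival gene Bcl2 (187 and 49.6 CPM). Mpo was at 1406 CPM here, close to the 1376 CPM of sub-cluster 1, and Cd34 at 385 CPM. F13a1 had UMIs up to 57 in a cell and 277 CPM, and Irf8 602 CPM. Dntt and F13a1 were high in different cells of this sub-cluster. The cell with 135 Dntt UMIs had no F13a1 UMI, and the cell with 57 F13a1 UMIs had no Dntt UMI.

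Sub-cluster 3 (13 cells) had the genes of monocytes. Ly6c2, which marks inflammatory monocytes, had 95 UMIs in its lowest cell, a median of 144 and 217 in the highest, and its level was 3000 CPM against 107 CPM in the other members. Lyz2 (3785 and 132 CPM), the galectin gene Lgals3 (780.5 and 3.65 CPM), S100a4 (695 and 19.7 CPM) and Ccr2 (406 and 35.1 CPM), the chemokine receptor of monocytes, stood with it. All 13 cells had Elane, at 3 to 234 UMIs. Cd34 was at 1 to 7 UMIs and Kit at 0 or 1, so these 13 cells met the rule but were low for both progenitor markers. Counts of Ly6c2 may include reads from its near copy Ly6c1.

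Sub-cluster 4 (8 cells) held the highest granule levels. Mpo had 195 UMIs in its lowest cell, a median of 330 and 488 in the highest, and Elane 3, 142 and 419. Cebpe, the factor that neutrophil precursors need for later granules, was at 253 CPM against 2.00 CPM in the other members, and Ms4a3 at 767 against 49.9 CPM. Cebpe had UMIs in 75% of the 8 cells and did not follow Elane. Its highest count, 27 UMIs, lay in a cell with 3 Elane and 34 Cpa3 UMIs. The cell with 419 Elane UMIs had 16 Cebpe UMIs and no Cpa3 UMI. Prss57 (160 and 23.6 CPM), Ctsg (3789 and 692 CPM) and Pglyrp1 (121 and 9.32 CPM), a peptidoglycan recognition protein of neutrophil granules, were high as well. Calr, a chaperone of the endoplasmic reticulum that binds Mpo, reached 2834 CPM, above the 724 to 1333 CPM of the other sub-clusters. Flt3 was at 0 in these 8 cells. Cpa3 was found here too, at 306 CPM with up to 38 UMIs in a cell, and Apoe at 326 CPM. The 16 basophil and mast cell genes summed to 692, 286, 306 and 840 CPM in sub-clusters 1 to 4, and the 20 specific and tertiary granule genes to 115, 96.7, 943 and 961 CPM.

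**Figure D3:**
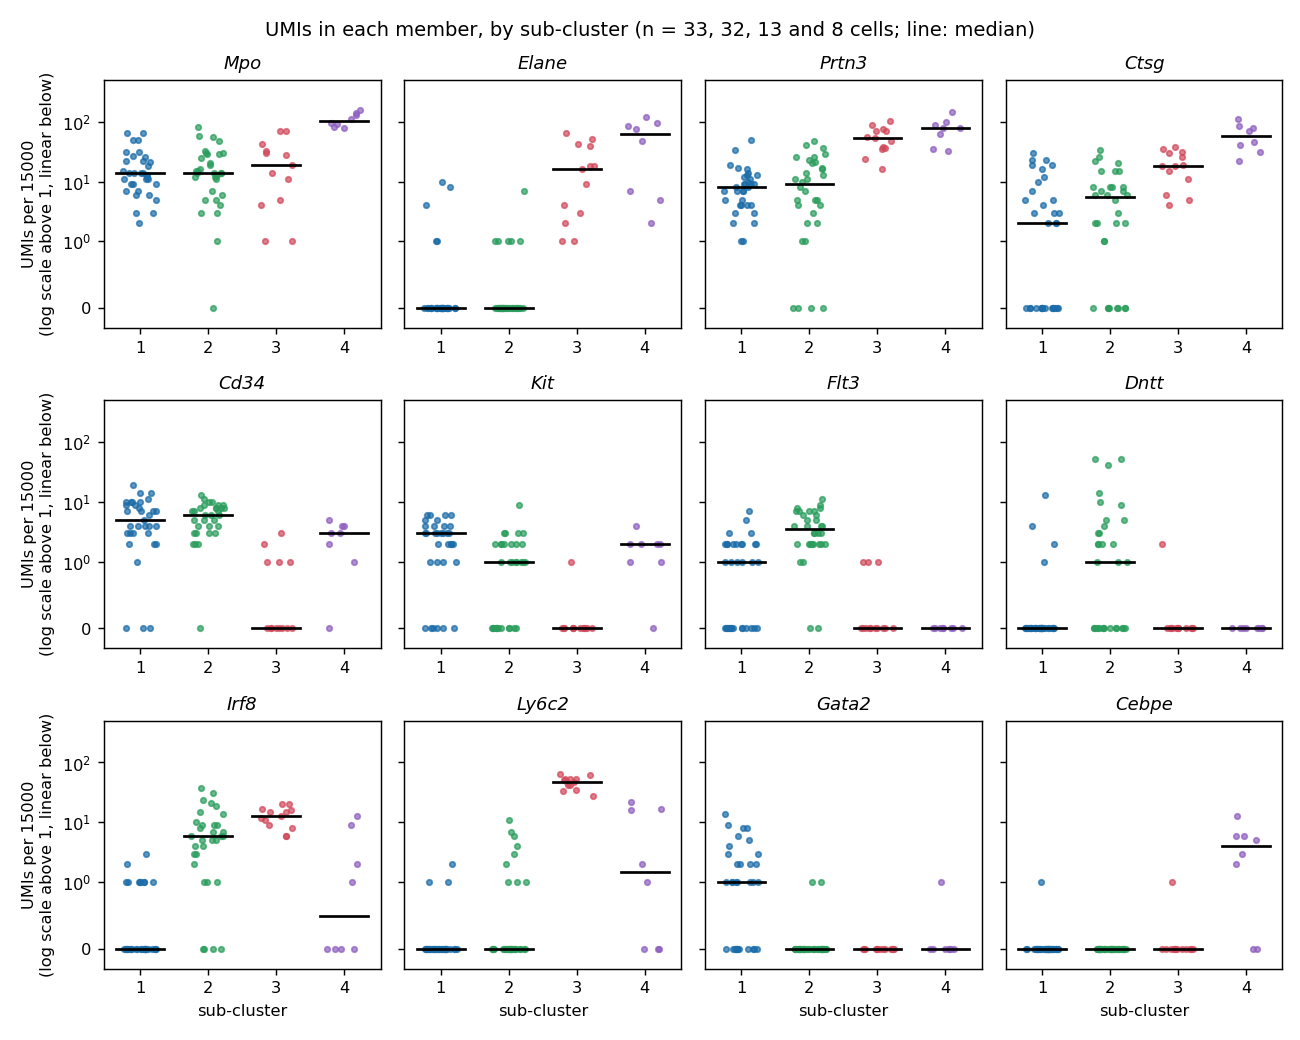
UMIs of 12 genes in each member after thinning to 15000 UMIs, by sub-cluster (33, 32, 13 and 8 cells); lines are medians, and the axis is logarithmic above 1 and linear below. Elane is at 0 in most cells of sub-clusters 1 and 2 and present in all cells of 3 and 4, while Cd34 has a median of 5 and 6 UMIs in sub-clusters 1 and 2 and of 0 in 3.

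**Figure D4:**
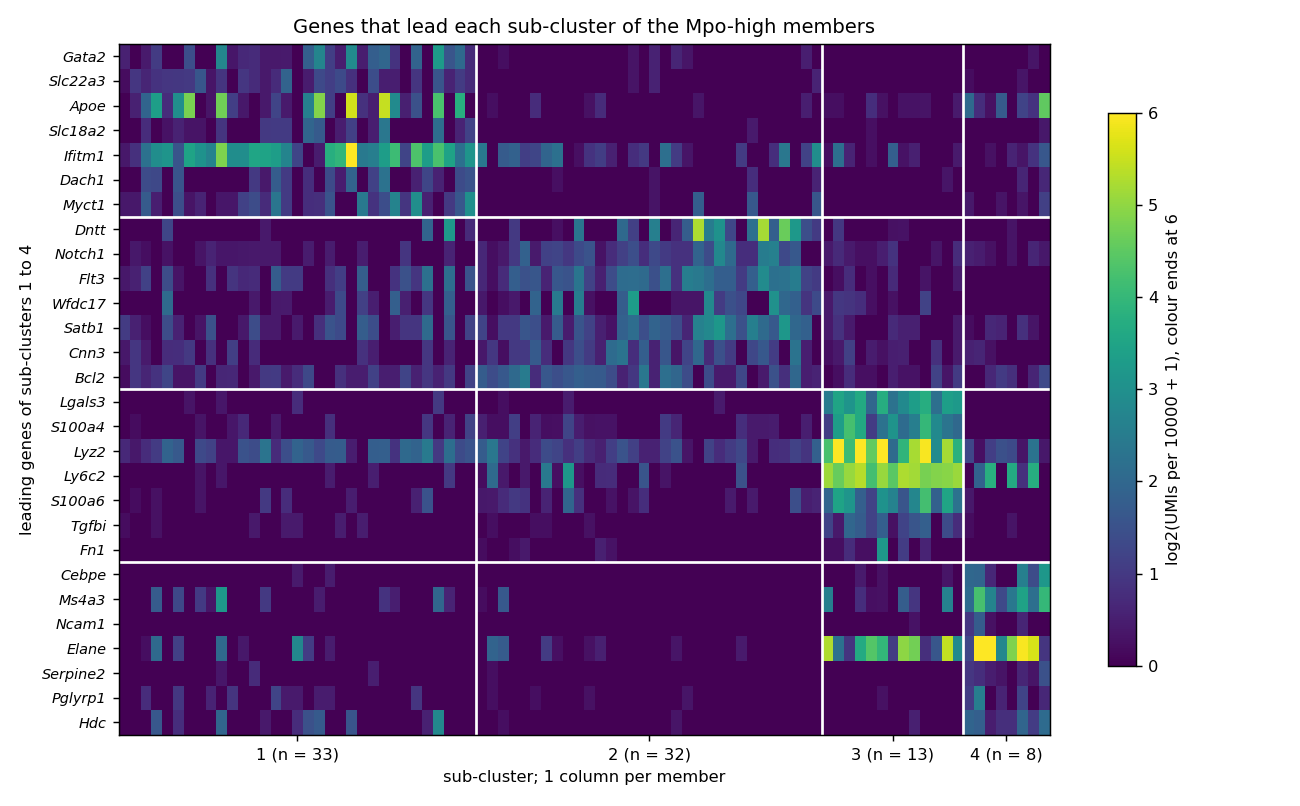
Leading genes of the 4 sub-clusters (rows, 7 per sub-cluster) in each member (columns, ordered by sub-cluster and then from most to fewest UMIs); colour is log2 of UMIs per 10000 plus 1, ending at 6. Lgals3, Ly6c2 and Lyz2 stand out in the 13 cells of sub-cluster 3, and Dntt is uneven among the 32 cells of sub-cluster 2.

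The number of groups depended on the resolution of the clustering. At resolution 0.3 sub-clusters 1 and 4 were a single group of 41 cells and the other two kept their cells. At resolution 1 there were 6 groups. Sub-cluster 1 then gave 25, 7 and 1 cells to different groups, and the 7 cells were led by Csrp3, Ms4a2 and Gata2, with Cpa3 and Itga2b among the first 10 genes. Sub-cluster 2 gave 21 and 11 cells, and the 13 cells of sub-cluster 3 stayed together. Dntt was among the first 10 genes of the 21 cells, and Irf8 and Bcl2 were among those of the 11 cells. At 1 UMI or more and 15000 UMIs per cell, Gata2 and Irf8 were both found in 9 members, Gata2 alone in 15 and Irf8 alone in 46.

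Dntt in the members stood beside low levels of B-lineage genes. Over all members Dntt was at 148 CPM, with UMIs in 28 cells, against 1039.9 CPM in the Dntt-positive B-lineage barcodes, which were chosen for it. Rag1, which cuts antigen receptor genes, had 4.47 CPM in members and 350 CPM in those barcodes, Vpreb1 5.06 and 2281 CPM, and Ebf1 16.1 and 3571 CPM. Within the members, Ebf1 was at 18.9 CPM (12.2 to 27.9) in sub-cluster 2 and 13.2 CPM (7.24 to 22.2) in sub-cluster 1, with overlapping intervals. Rag1 had 13 UMIs in sub-cluster 2, of which 10 lay in 1 cell. The members with 135, 99 and 63 Dntt UMIs held 13, 18 and 6 Mpo UMIs and 1, 0 and 0 Prtn3 UMIs. They had no Elane or Ctsg UMI. At 15000 UMIs per cell, Spearman's rho between Prtn3 and Dntt was -0.51 across the members. At this depth 19 members had both and 4 had Dntt without Prtn3. Ighm was 341 CPM in sub-cluster 2 and 328 CPM in sub-cluster 3, above the 127 and 115 CPM of sub-clusters 1 and 4. Of 6626 genes compared with the Dntt-positive B-lineage barcodes, 237 (3.58%) were 4-fold higher in members and 321 (4.84%) lower. All 19 early B-lineage genes were lower, with Cd79a and Dntt fixed by the choice of cells. Many of the 19 passed the filter only through the B-lineage barcodes and could only be lower. In the other direction, 11 of 18 primary granule genes, Mpo among them by that choice, 11 of 20 stem and progenitor and 10 of 16 monocyte genes were higher. Those under 20 CPM in the B-lineage barcodes, such as Elane, Prtn3, Ctsg, Cd34, Flt3 and Ccl9, passed only through the members. They could only be higher, so their direction is not a result.

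The Mcpt8-high barcodes shared granule genes with the members, and 10 of the 36 had at least 5 Mpo UMIs. Mcpt8 lies 14608 bases from Ctsg on chromosome 14, in the cluster of mast cell and granule proteases. Of 6355 genes, 130 (2.05%) were 4-fold higher in members and 272 (4.28%) lower. Mpo was at 2063 CPM in members and 1824 CPM in Mcpt8-high barcodes, and Ctsg at 1019.9 and 1908 CPM. Prtn3 was higher in members, at 1779 against 569 CPM, as was Elane at 701 against 296 CPM, both under 4-fold. The primary granule list as a whole was lower in members, at a sum of 9911 against 14998 CPM, with 1 of 18 genes 4-fold higher, 2 lower and a median log2 ratio of -0.52. Of 16 monocyte genes 10 were past 4-fold upward and 2 downward. Csf1r had 77.4 CPM in members and 1.36 CPM in Mcpt8-high barcodes, Irf8 412 and 5.43 CPM, and Flt3 115 and 6.79 CPM. These genes were under 20 CPM in the Mcpt8-high barcodes, so they could only be higher. All 16 basophil and mast cell genes were 4-fold lower in members, Mcpt8 among them by the rule. Most of the 16 passed the filter only through the Mcpt8-high barcodes, which were chosen by a basophil gene. They could only be lower, so their direction is not a result. Ms4a2, a chain of the IgE receptor, had 17.0 CPM in members, in 6 cells, and 567 CPM in Mcpt8-high barcodes. Gata2 had 43.8 CPM in members and 953 CPM in Mcpt8-high barcodes, and Cebpa 65.8 and 263 CPM, just short of 4-fold. The summed T and NK genes ran from 0 to 361 CPM over members (median 48.9) and from 0 to 15750 CPM over Mcpt8-high barcodes (median 231), and the part of doublets among those barcodes was not tested.

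The members carried the genes of DNA replication, with a higher median of their UMIs per cell than the other cells of the library. Of 30 genes of the start and course of replication, 26 had a log2 ratio above 0 against the other barcodes, with a median of 0.72 among the 29 above the filter, and none was past 4-fold. With each barcode counted equally the median was 1.39 and 2 genes were past 4-fold. Mcm5, a subunit of the replicative helicase, had UMIs in 77 members and 208 CPM, against 94.3 CPM in the other barcodes. Thinned to 2000 UMIs it was found in 29.1% of members (19.8 to 39.9%), 2.78% of Mcpt8-high barcodes (0.0703 to 14.5%), 10.9% of Dntt-positive B-lineage barcodes (9.21 to 12.9%) and 7.67% of the other barcodes (7.23 to 8.13%). The summed UMIs of the 30 genes had a median of 6 per 2000 in members, against 1, 2 and 1 in those 3 populations. The highest barcode had 17 in members, against 10, 36 and 39 in the same order. The rule favours deep cells, which thinning does not undo, and the part of this in the difference was not tested.

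Genes of mitosis gave another picture, which turned on how cells were weighted. By summed UMIs none of 34 had a log2 ratio above 0 against the other barcodes, and the median of the 33 above the filter was -0.73. When each barcode counted equally, the median was -0.08 and 11 of 26 genes lay above 0. Mki67, the proliferation antigen Ki-67, had 129 CPM in members and 283 CPM in the other barcodes, and at 2000 UMIs a share of 12.8% (6.56 to 21.7%) against 12.7% (12.1 to 13.3%). Averaged over all draws those shares were 17.3 and 12.5%. Top2a, topoisomerase II alpha, had a share of 25.6% (16.8 to 36.1%) in members and 14.4% (13.8 to 15.01%) in the other barcodes. The summed mitotic UMIs per 2000 had a median of 5 in members (middle 50% from 2 to 9) and 3 in the other barcodes (1 to 4), and 55.8% of members had 5 or more. In the Dntt-positive B-lineage barcodes the highest cell had 101 such UMIs per 2000, and in members the highest had 40.

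**Figure D5:**
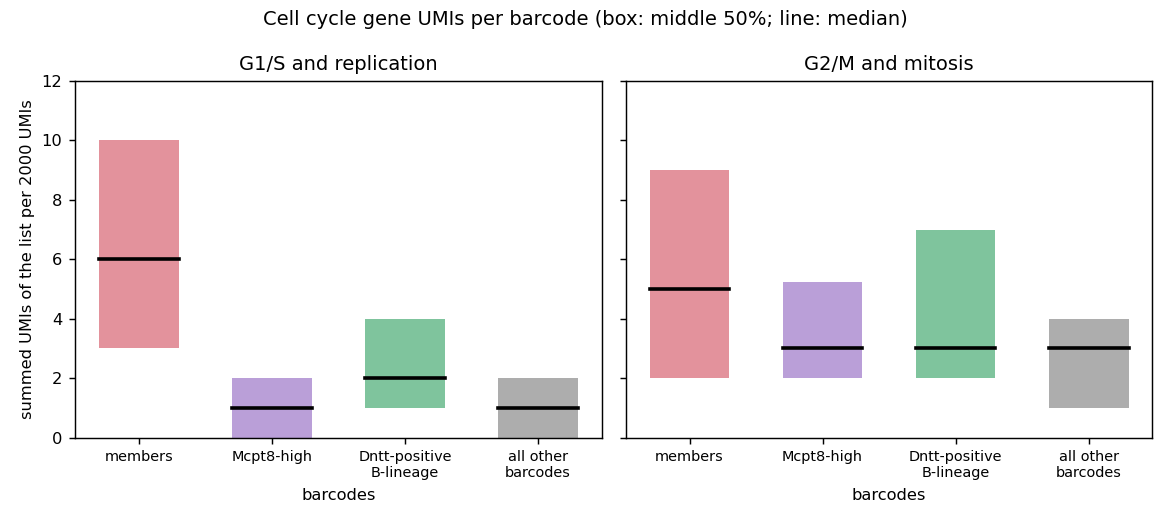
Summed UMIs of 30 replication genes (left) and 34 mitosis genes (right) per 2000 UMIs of a barcode, in members, Mcpt8-high, Dntt-positive B-lineage and all other barcodes; boxes span the middle 50% and lines are medians. For replication genes the member median of 6 lies above the upper box edge of the other 3 populations, and for mitosis genes the boxes overlap.

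Among the regulators of the cycle, Cdk6, a kinase of the first growth phase, and Cdkn1a, the inhibitor p21, were 4-fold higher, at 486 and 158 CPM in members against 115 and 33.7 CPM in the other barcodes. E2f2 and the antiproliferative gene Btg1 were 4-fold lower, at 19.1 and 217 CPM against 113 and 1997 CPM. Within the members the replication genes were highest in sub-cluster 3, with a median of 83 UMIs per 15000, and at 47, 38.5 and 30 in sub-clusters 1, 2 and 4. The mitosis genes had medians of 27, 27.5, 58 and 30 in sub-clusters 1 to 4. Their total UMIs per cell differed too, with medians of 29156, 40363, 47088 and 39331.

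Most genes of biosynthesis were higher in members than in the other barcodes by less than 4-fold, but this did not hold for every list against the Mcpt8-high barcodes. All 20 ribosome biogenesis genes were above a log2 ratio of 0, with a median of 0.93, and none reached 4-fold. Npm1, a nucleolar protein, had 1942 CPM in members and 1053 CPM in the other barcodes. Of 24 chaperones and folding enzymes of the secretory pathway, 20 were above 0 with a median of 0.55, and only Herpud1 was past 4-fold, at 92.9 CPM in members and 471 CPM in the other barcodes. Among glycolysis genes 15 of 16 were above 0, and Pgam1 was past 4-fold, at 492 and 103 CPM. Against the Mcpt8-high barcodes, all 20 ribosome biogenesis genes again lay above 0, but only 3 of 24 secretory chaperones (sums of 7569 and 10365 CPM, median log2 ratio -0.34) and 7 of 16 glycolysis genes (median -0.28) did. Alas1, the first enzyme of heme synthesis, which Mpo needs for its heme group, had 69.7 CPM in members and 13.5 CPM in the other barcodes, and 270 CPM in sub-cluster 4. Of 10 class II antigen presentation genes, 5 were 4-fold lower in members than in the other barcodes, with Cd74 at 43.8 against 1818 CPM. Against the Mcpt8-high barcodes, 8 of the 11 listed class II genes lay above 0, with sums of 469 and 242 CPM. The subunits of the NADPH oxidase, which supplies the hydrogen peroxide that Mpo uses, gave no gene 4-fold higher among 10, and Hvcn1, a proton channel, was lower (14.6 and 125 CPM). Over all genes 2.43% were higher and 5.29% lower, so nothing is read from these counts.

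Monocyte and dendritic genes split by gene. Of 16 monocyte genes above the filter, 5 were 4-fold higher (Csf1r, F13a1, Ms4a6c, Ccl9 and Fcgr3) and none lower, with a median log2 ratio of 0.92. Fcgr3, an Fc receptor of myeloid cells, had 45.0 CPM in members and 6.59 CPM in the other barcodes. Csf1r, F13a1, Ccl9 and Fcgr3 were under 20 CPM in the other barcodes, so they could only be higher. S100a4 and the cathepsin gene Ctss were on the other side of 0, with 145 and 83.1 CPM in members and 282 and 128 CPM in the other barcodes. Of 9 dendritic cell genes above the filter, Flt3 was higher and 5 were lower, among them Siglech, a marker of plasmacytoid dendritic cells, at 18.2 CPM in members and 104 CPM in the other barcodes. Of its member UMIs, 93.4% lay in 1 cell. Flt3 passed the filter only through the members and Siglech only through the other barcodes, so the direction of each was fixed. Of 10 basophil and mast cell genes above the filter, 5 were lower, Mcpt8 among them by the rule, and none higher. Most of the 10 passed the filter only through the other barcodes and could only be lower.

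Among homing receptors Cxcr4 and S1pr1 were lower in members. Cxcr4, the receptor that holds cells in marrow through CXCL12, had 75.6 CPM in members and 337 CPM in the other barcodes, and S1pr1, the receptor by which lymphocytes leave tissues, 7.74 and 67.0 CPM. These were the 2 of 17 adhesion and homing genes past 4-fold, both downward. Among 16 survival and death genes, Bcl2l1 (Bcl-xL), Bcl2a1b and Bcl2a1d were 4-fold lower. Bcl2l1 had 9.23 CPM in members and 53.7 CPM in the other barcodes. Bcl2a1b and Bcl2a1d are near-identical copies whose reads may be split between them, so each value is uncertain. Of 21 immediate early genes, which also respond to tissue handling, only Ier3 was past 4-fold, at 235 CPM in members and 41.5 CPM in the other barcodes. Fos stood at 1015 and 327 CPM and Junb at 695 and 1375 CPM in the same order.

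In the macaque tables MPO was listed in 1 of 4 channels, with at most 1 UMI in a barcode. The macaque channels hold sorted cells of female Chinese rhesus macaques aged 4 to 8 years, 2 channels of meninges and 2 of spleen, each loaded with 8000 cells, with the sort given as CD45–CD11b–CD3–. That channel was of meninges and had 4 MPO UMIs in 4 of 4073 barcodes. ELANE and PRTN3 were not listed in any of the 4 tables, which leave out genes seen in few cells, so barcodes with these genes or MPO could be unlisted. AZU1, azurocidin, a primary granule gene that mice lack, had 56 and 48 UMIs in the meninges channels, with up to 12 in a barcode, and was not listed in spleen. CD34 had 20 and 31 UMIs in the meninges channels and was not listed in spleen, and KIT had 142 and 168 UMIs in meninges and 16 and 23 UMIs in spleen. Species, age, sex and sort differ between these samples and the mouse library and cannot be told apart.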

How the data were processed

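The mouse table, as deposited, holds raw UMI counts for each gene and barcode. The submitters' processing notes name Cell Ranger, without a version, and the build mm10. The deposited macaque tables hold UMI counts too. The mouse table has 13947 barcodes with 500 to 105531 UMIs (median 6309), of which 13933 had at least 300 genes. The members, gene lists and comparisons were chosen with earlier results of these data known.

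Counts were summed per population with numpy 2.4.6 and scipy 1.17.1 in Python 3.11.15. The label gives 1 pooled library, so no test was run and a fixed 4-fold ratio (pseudocount 1 CPM, at least 20 CPM on either side) took its place. Barcodes were thinned without replacement to 2000 UMIs for shares, and 395 of the other barcodes and 3 Dntt-positive barcodes below that were left out. Members were clustered with scanpy 1.11.5 and igraph 0.11.9 (1000 variable genes, 15 components, 10 neighbours, Leiden resolution 0.5). Leading genes, by a rule chosen after seeing values, had at least 50 CPM and UMIs in at least 50% of a sub-cluster's cells. Scrublet marked doublets, none of which were removed, since no member was marked. Positions are from GENCODE M21, where 30464 of 31017 gene rows had a named match. Genes named are Mpo, Elane, Prtn3, Ctsg, Cd34 and Kit, the 25 largest and 12 smallest ratios at 100 CPM or more without immunoglobulin and T cell receptor segments, the 10 most abundant genes, and from each list the 4 most abundant genes and those it is known for; others singled out in the text were chosen after their values were seen. Functions were tested on simulated data. TMM factors came from edgeR 4.0.16 in R 4.3.3.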

Additional observations from a re-analysis of the deposited data

How the results depend on the processing

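Who counted as a member moved with the rule: 44 barcodes had Cd79a at 0, 145 had Mpo at 50 CPM or more, and 113 had 5 or more Mpo UMIs whatever their Mcpt8, Cd3e and Cd79a. The last 2 alternatives, the 15000-UMI depth, the mean over draws and the set without the haemoglobin-rich barcode were chosen after seeing the data. Minimums of 200 or 1000 genes, a mitochondrial limit of 10% and removal of barcodes that Scrublet marked left the same 86.

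Shares of members with a UMI depended on depth throughout. At 1000 UMIs per cell the share was 26.7% for Cd34, 6.98% for Kit, 51.2% for Prtn3, 12.8% for Top2a and 14.0% for Mcm5. At 4000 UMIs it was 60.5% for Cd34, 36.0% for Kit, 86.05% for Prtn3, 60.5% for Ctsg, 30.2% for Mki67, 44.2% for Top2a and 47.7% for Mcm5. At 15000 UMIs it was 84.9% for Cd34, 64.0% for Kit, 37.2% for Elane, 95.3% for Prtn3, 73.3% for Ctsg, 52.3% for Mki67, 64.0% for Top2a and 80.2% for Mcm5. Without thinning it was 95.3% for Cd34, 80.2% for Kit, 43.0% for Elane, 96.5% for Prtn3, 73.3% for Ctsg, 69.8% for Mki67, 75.6% for Top2a and 89.5% for Mcm5. Another random draw of 2000 UMIs gave 32.6% for Cd34. With Mpo at 50 CPM or more, Elane stood at 15.4%, Prtn3 at 54.4% and Ctsg at 30.9%.

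The count of genes 4-fold higher was 314 and of genes lower 643, both with a minimum of 10 UMIs and with no filter, since more low genes then entered; with a pseudocount of 10 CPM they were 56 and 201. Prss34 had a log2 ratio of 4.14 with barcodes of any Mcpt8, Cd3e and Cd79a admitted, and Ptma 0.13 with per-cell means; the cause was not tested. Over 48 named genes and 17 settings, 610 ratios stayed within their counting interval, 203 moved outside it and these 2 changed sign; Cd3e, at 0 in members, had no ratio without a pseudocount. No paired analysis was possible because the mouse data are 1 pooled library. Depth limits what a 0 can show, and nothing here measures the spread between mice or ages.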
